A study of Mus musculus with 23 samples.

Results

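IAP and ETn/MusD elements were described in spinal cord RNA of PS19 tauopathy mice and their littermate controls at 9 and 4 months. Members were the subfamilies of the repeat table with the family ERVK and a name that starts with IAP or contains ETN in any letter case. This gave 30 of 1135 subfamilies, out of 283 of the family ERVK. They were 10 internal parts and 15 LTRs of IAP elements, and 4 internal parts and 1 LTR of ETn/MusD elements. A mean of at least 10 normalized reads over all samples was needed for a test, which 26 members and 920 subfamilies in all reached. The 4 members below it were the internal parts IAPEY5_I-int and IAPLTR4_I and the LTRs IAPLTR3 and IAPEY5_LTR.

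IAP, or intracisternal A particle, elements are mouse endogenous retroviruses. Full copies have an internal part, which codes for the Gag and Pol proteins, between a pair of identical long terminal repeats (LTRs) that hold the promoter and the end of the transcript. Solitary LTRs, left where the internal part was lost by recombination, are also common. ETn (early transposon) elements do not code for the proteins needed to move and are mobilized by those of the related MusD elements. Both groups still make new insertions in the mouse germ line, and the insertions differ between inbred strains. In somatic tissue they are kept silent by DNA methylation and, through KRAB zinc finger proteins with TRIM28 and SETDB1, by histone methylation.

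PS19 mice carry a human tau transgene with a frontotemporal dementia mutation under the mouse prion protein promoter, and develop tau aggregates and neuron loss in brain and spinal cord with age. The study compared heterozygous PS19 animals with wild-type littermates by stranded sequencing of poly(A)-selected RNA from lysate of the whole spinal cord. There were 7 PS19 and 6 Control animals aged 9 months, and 5 PS19 and 5 Control animals aged 4 months, with no treatment in any group. The sources used here give no sex, inbred background, litter or batch. The table lists repeats and no genes, so tissue markers and the tau transgene were not analysed here. Replicates were numbered in the order of their accessions. The limma p-values set a difference against the spread between animals. For each subfamily limma draws this spread towards that of other subfamilies of similar level, so it is not the subfamily's own spread alone.

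Values are reads assigned to a subfamily, divided by a size factor for each library, and are called normalized reads. They are not divided by the length or copy number of a subfamily, so levels are compared between animals and not between subfamilies. Repeat reads numbered 338090 to 590194 per library at 9 months and 529522 to 2168280 at 4 months. Member reads numbered 11310 to 37515 at 9 months and 36906 to 76679 at 4 months. The 4-month libraries stood apart in sets that held both genotypes. Replicates 1 to 3 of each genotype had 1494944 to 2459738 normalized repeat reads, replicates 4 and 5 had 471178 to 779835, and the 9-month libraries had 370990 to 539759. What separates the sets is not given in the labels, though replicates 1 to 3 also have the lower title numbers. In the sample titles of the 9-month animals, the numbers of PS19 replicates 1 to 5 all precede those of Control animals, and the numbers of replicates 6 and 7 do not.

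At 9 months, IAPEz-int, an internal part of young IAP elements, and IAPLTR1_Mm, an LTR found with it, were higher in PS19 spinal cord. They were the 2 of 26 tested members past a limma adjusted p of 0.05 in the 9-month samples. Among all 920 subfamilies, 31 passed (3.37%), 28 of them higher (3.04%) and 3 lower (0.326%) in PS19. The share of members called higher was 2 of 26 and that of members called lower 0 of 26. At an unadjusted p under 0.05 there were 6 members and 164 of the 920 (17.8%). No other member of the IAP or ETn/MusD groups passed.

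IAPEz-int ranged over 12003, 21634 and 25010 normalized reads in PS19 (lowest, median and highest of 7), and over 8247, 12714 and 14730 in Control (of 6). The means were 19694 ± 4809 in PS19 and 12276 ± 2296 in Control (SD, n = 7 and 6). PS19 replicates 1, 3, 4, 6 and 7 lay above every Control animal, at 21826, 25010, 20541, 22844 and 21634. PS19 replicates 2 and 5, at 14002 and 12003, lay within the Control range, so the groups overlapped. On the log2(normalized reads + 1) scale the fold change was 0.66 (SE 0.15, 95% interval 0.36 to 0.97), with a limma adjusted p of 0.0144. In lysate of a whole tissue, more cells that transcribe an element and more RNA per cell cannot be told apart.

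IAPLTR1_Mm ranged over 1592, 3020 and 3609 normalized reads in PS19 (lowest, median and highest of 7), and over 1242, 1693 and 1945 in Control (of 6). Its means were 2727 ± 792 in PS19 and 1649 ± 238 in Control (SD, n = 7 and 6). The same PS19 animals as for IAPEz-int, replicates 1, 3, 4, 6 and 7, lay above every Control animal, and replicates 2 and 5, at 1592 and 1696, lay within the Control range. The log2 fold change was 0.68 (SE 0.16, 95% interval 0.35 to 1.01), with a limma adjusted p of 0.0190. As a percent of IAPEz-int, IAPLTR1_Mm stood at 13.8 ± 1.72 in PS19 and 13.6 ± 1.54 in Control at 9 months. An LTR read and an internal read can come from the same transcript, so the values of the pair are not independent.

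**Figure D1:**
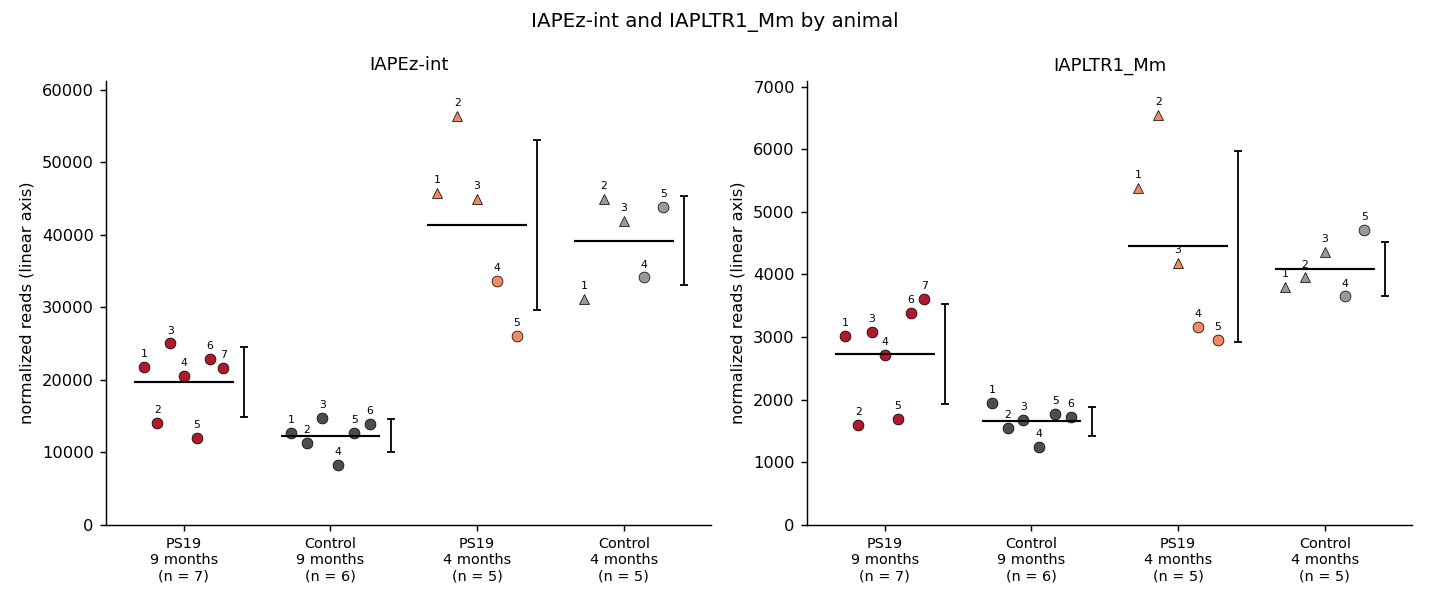
Normalized reads (linear axis from 0) of IAPEz-int on the left and IAPLTR1_Mm on the right in each animal, by genotype and age. Digits are replicate numbers, triangles are replicates 1 to 3 of the 4-month groups, horizontal lines are means and bars beside them the SD. At 9 months, PS19 replicates 1, 3, 4, 6 and 7 lie above every Control animal and replicates 2 and 5 among them in both panels, and the 4-month genotypes overlap.

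Both calls depended on the spread and the scale used. In the limma fit of all 23 samples, 0 of 26 members passed and both subfamilies had an adjusted p of 0.9997. In that fit 3 members and 28 of the 920 (3.04%) had an unadjusted p under 0.05, and 1 of the 920 passed (0.109%). It shares the estimate of spread with the 4-month libraries, which stood apart in sets. The pair itself was not more variable at 4 months in both genotypes. The coefficient of variation of IAPEz-int was 24.4% in PS19 and 18.7% in Control at 9 months, and 28.4% and 15.7% at 4 months. That of IAPLTR1_Mm was 29.0% in PS19 and 14.4% in Control at 9 months, and 34.2% and 10.6% at 4 months. Over the 920 subfamilies the median log2 fold change was 0.19 at 9 months, and it was 0.01 after TMM scaling within repeats, under which 7 of the 920 passed higher (0.761%) and 6 lower (0.652%), 13 in all (1.41%). Under TMM scaling IAPEz-int was at 0.48 (limma adjusted p 0.130) and IAPLTR1_Mm at 0.50 (limma adjusted p 0.163). Neither passed without the variance trend, where spread is not drawn towards that of subfamilies of similar level. The limma adjusted p was then 0.113 for IAPEz-int and 0.124 for IAPLTR1_Mm. Without Control replicate 4, the lowest animal for both, 0 members passed, with limma adjusted p of 0.0521 for IAPEz-int and 0.0582 for IAPLTR1_Mm. IAPLTR1_Mm alone was lost without PS19 replicate 6 (limma adjusted p 0.0580) or Control replicate 2 (limma adjusted p 0.0548). With PS19 replicates 6 and 7 alone against all Control animals, 2 members and 6 of the 920 (0.652%) passed. The members were the same pair, at log2 fold changes of 0.88 for IAPEz-int (limma adjusted p 0.00151) and 1.10 for IAPLTR1_Mm (limma adjusted p 5.15e-05). Replicates 6 and 7 are both among the PS19 animals above every Control animal for the pair. The PS19 animals within the Control range are left out, so this fit is no separate support for the calls. In edgeR, which called 24 of the 920 (2.61%), and in DESeq2, which called 45 (4.89%), on the recovered reads of 9-month samples, IAPEz-int and IAPLTR1_Mm were again the 2 members that passed.

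IAPEz-int held most of the reads of the members. It made up 71.2% to 84.9% of their sum over the 23 samples. Of the repeat signal it made up 4.43% ± 1.14 in PS19 and 3.04% ± 0.507 in Control at 9 months (SD, n = 7 and 6). By animal, PS19 replicates 2 and 5 stood at 3.0% and 2.85% of the repeat signal, within the 2.10% to 3.49% of Control animals, and the other PS19 animals stood at 4.04% to 5.68%. Of all ERVK signal it made up 33.7% ± 6.06 in PS19 and 25.7% ± 3.35 in Control. The other members without this pair summed to 1614 ± 250 normalized reads in PS19 and 1340 ± 230 in Control.

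The other tested IAP internal parts had positive log2 fold changes at 9 months, and none of them passed, with IAPEy-int and IAPA_MM-int turning negative under TMM and quantile scaling. Over the 8 tested internal parts the median log2 fold change was 0.48 (range 0.09 to 0.89), against 0.19 over all tested subfamilies and 0.35 over 30 other ERVK internal parts. Of the 26 members, 22 were positive (84.6%), against 690 of the 920 (75%). A positive sign was thus common among repeats at this age.

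IAPEY3-int, an internal part of the IAPEY group, had 11.8, 12.5 and 31.1 normalized reads in PS19 (lowest, median and highest of 7) and 4.03, 9.53 and 13.6 in Control (of 6). PS19 replicates 1, 5 and 6 lay above every Control animal and the others within their range. Its log2 fold change was 0.89 (95% interval 0.16 to 1.62, limma adjusted p 0.180), from 11 to 34 reads per library in PS19 and 4 to 13 in Control. IAPEY4_I-int had 74.8, 185 and 202 normalized reads in PS19 (lowest, median and highest of 7) and 61.6, 117 and 165 in Control (of 6). PS19 replicates 1, 2, 5 and 6 lay above every Control animal. The log2 fold change of IAPEY4_I-int was 0.49 (limma adjusted p 0.279).

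IAP-d-int, a further IAP internal part, had 48.2, 69.1 and 88.7 normalized reads in PS19 (lowest, median and highest of 7) and 28.5, 50.8 and 74.5 in Control (of 6). The groups overlapped, with PS19 replicates 1, 2 and 6 above every Control animal and a log2 fold change of 0.48 (limma adjusted p 0.234). IAPLTR3-int had 12.2, 21.9 and 43.3 normalized reads in PS19 and 11, 16.1 and 26.2 in Control (log2 fold change 0.48, limma adjusted p 0.388). IAPA_MM-int had 46.6, 83.2 and 121.9 in PS19 and 48.3, 70.4 and 115 in Control, a log2 fold change of 0.16 that was -0.020 under TMM scaling. IAPEy-int had 31.8, 35.5 and 58.1 in PS19 and 28.0, 41.4 and 46.2 in Control, a log2 fold change of 0.09 that was -0.090 under TMM scaling. The genotypes overlapped in each of these, with PS19 replicates 1, 2 and 5 above every Control animal for IAPLTR3-int.

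**Figure D2:**
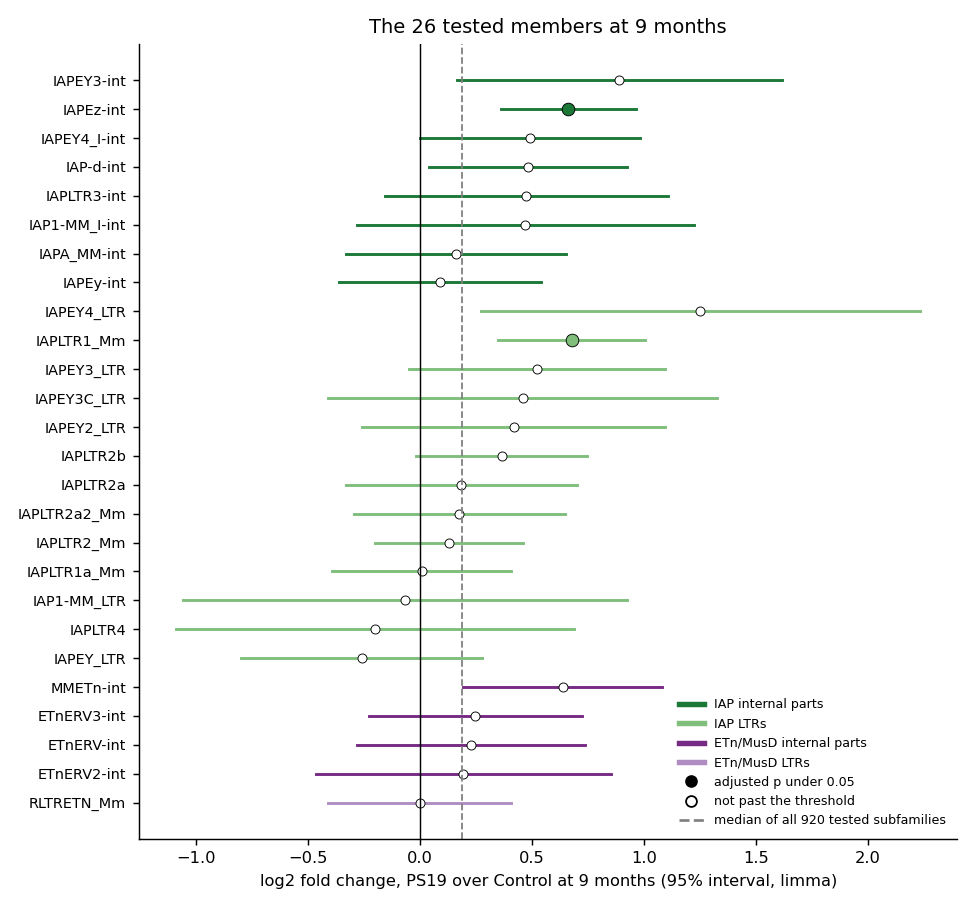
Log2 fold change of PS19 over Control at 9 months with its 95% interval (limma, 9-month samples) for each of the 26 tested members, grouped by internal parts and LTRs of IAP and ETn/MusD. Filled circles have an adjusted p under 0.05, open circles do not, and the dashed line is the median of all 920 tested subfamilies at 0.19. IAPEz-int and IAPLTR1_Mm are the filled circles, at 0.66 and 0.68, and the wider intervals around larger estimates, such as IAPEY4_LTR at 1.25, belong to members with few reads.

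IAP1-MM_I-int, another IAP internal part, was unlike the others in how Control animals varied at 9 months. It had 102, 168 and 220 normalized reads in PS19 (lowest, median and highest of 7). In Control it had 203, 322 and 243 in replicates 1 to 3, and 62.6, 46.1 and 44.3 in replicates 4 to 6. The Control animals thus fell on either side of the whole PS19 group, apart from Control replicate 1 within it. Its coefficient of variation was 28.1% in PS19 and 77.4% in Control at 9 months, and 83% in PS19 and 23% in Control at 4 months. The log2 fold change at 9 months was 0.47 (95% interval -0.28 to 1.22, limma adjusted p 0.483).

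**Figure D3:**
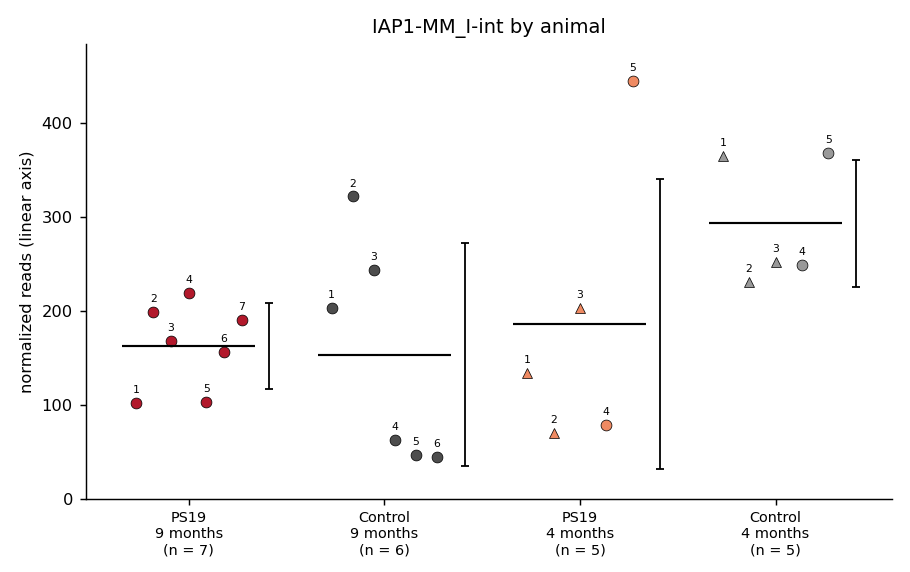
Normalized reads (linear axis from 0) of IAP1-MM_I-int in each animal by genotype and age. Digits are replicate numbers, triangles are replicates 1 to 3 of the 4-month groups, lines are means and bars the SD. Control animals at 9 months stand at 203 to 322 in replicates 1 to 3 and at 44.3 to 62.6 in replicates 4 to 6, and PS19 replicate 5 at 4 months stands at 445.

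Of the 13 tested IAP LTRs, IAPLTR1_Mm was the 1 that passed. Their median log2 fold change was 0.18 (range -0.26 to 1.25), against 0.21 over 199 other ERVK LTRs. IAPLTR1a_Mm, an LTR subfamily close to IAPLTR1_Mm in name, had 100.05, 130 and 228 normalized reads in PS19 (lowest, median and highest of 7) and 77.9, 146 and 164 in Control (of 6). Its log2 fold change was 0.01 (95% interval -0.39 to 0.41), and it was -0.17 under TMM scaling. Its difference from IAPLTR1_Mm was not tested.

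IAPLTR2_Mm, another IAP LTR, had 93.4, 134 and 164 normalized reads in PS19 (lowest, median and highest of 7) and 87.8, 122 and 153 in Control (of 6). Its log2 fold change of 0.13 was -0.050 under TMM scaling. IAPLTR2a2_Mm had 46.1, 63.8 and 98.8 in PS19 and 38.2, 56.8 and 97.6 in Control, a log2 fold change of 0.18 that was -0.0025 under TMM scaling. Neither LTR separated the genotypes. Which internal part an LTR stood beside in the genome cannot be read from these values. Of the remaining IAP LTRs, IAPEY4_LTR was highest, at a log2 fold change of 1.25 (limma adjusted p 0.158). It rested on 8 to 19 reads per library in PS19 and 0 to 11 in Control, where 1 animal had none. The lowest was IAPEY_LTR, at -0.26 (limma adjusted p 0.586).

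No ETn/MusD member passed at 9 months. MMETn-int, an internal part of the ETn/MusD group, had 132, 164 and 313 normalized reads in PS19 (lowest, median and highest of 7) and 68.0, 118 and 207 in Control (of 6). All 7 PS19 animals lay above the Control median, and replicates 1 and 5 lay above every Control animal, of which replicate 3 was far above the other 5, at 68.0 to 131. The log2 fold change of MMETn-int was 0.64 (SE 0.22, 95% interval 0.19 to 1.08), with a limma adjusted p of 0.110. Without Control replicate 3 it was 0.80 (limma adjusted p 0.0126), and with sample weights 0.62 (limma adjusted p 0.0288). The limma adjusted p of MMETn-int was 0.0611 to 0.303 when any other animal was left out.

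ETnERV-int had 48.2, 131 and 209 normalized reads in PS19 (lowest, median and highest of 7) and 81.2, 98.9 and 123 in Control (of 6). PS19 replicates 1, 2, 5 and 6 lay above every Control animal and replicate 7 below every one, with a log2 fold change of 0.23 (limma adjusted p 0.614). The coefficient of variation was 44.9% in PS19 and 16.5% in Control. ETnERV3-int had 39.3, 59.7 and 112 in PS19 and 36.4, 56.1 and 76.6 in Control, a log2 fold change of 0.25 (limma adjusted p 0.558). ETnERV2-int had 16.5, 37.3 and 61.3 in PS19 and 13.1, 27.8 and 49.3 in Control, a log2 fold change of 0.19 that was -0.040 under quantile scaling. RLTRETN_Mm, the LTR of the group, had 43.3, 62.2 and 95.1 in PS19 and 50.2, 63.8 and 77.6 in Control, a log2 fold change of -0.0020 (95% interval -0.41 to 0.40). In each of these the genotypes overlapped, and PS19 replicate 1 was the highest animal of its group.

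**Figure D4:**
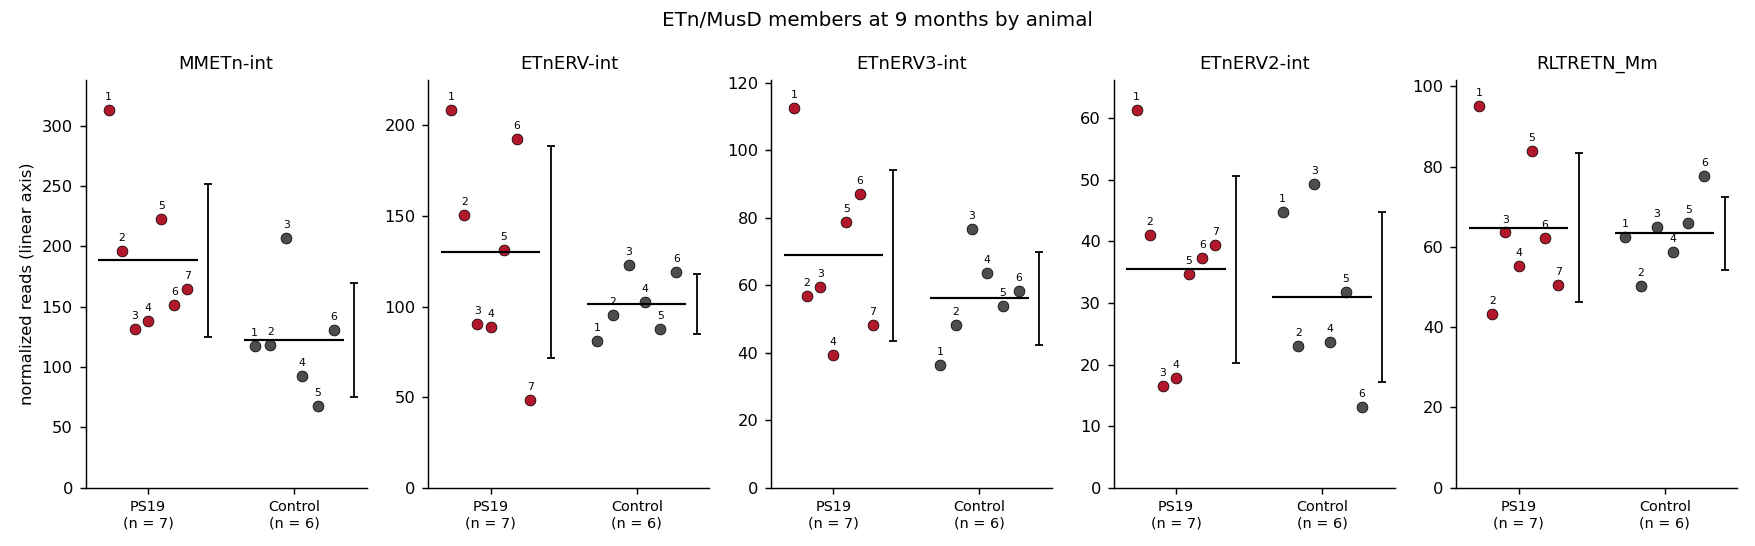
Normalized reads (linear axes from 0) of the 5 ETn/MusD members in each 9-month animal, PS19 left of Control. Digits are replicate numbers, lines are means and bars the SD. PS19 replicate 1 is the highest PS19 animal in each panel, and PS19 replicates 3, 4 and 7, which lie above every Control animal for IAPEz-int, are at or below the Control maximum in each panel.

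The animals that were high differed between members. For none of the 26 tested members did the genotypes separate without overlap at 9 months, as they did for 9 of the 920 subfamilies with PS19 higher (0.978%) and 3 with PS19 lower (0.326%). PS19 replicate 1 lay above every Control animal for 16 of the 26 members and replicate 6 for 14. Replicates 3 and 7 did so for 3 each, IAPEz-int and IAPLTR1_Mm among them. Replicates 2 and 5, within the Control range for that pair, lay above every Control animal for 9 and 10 members, ETnERV-int, IAPEY4_I-int and IAPLTR2b among them. Control replicate 3 was the highest Control animal for 13 of the 26 members, and Control replicate 5 the lowest for 10.

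At 4 months no member passed between genotypes. Fitted with limma on the 4-month animals, 0 of 26 members and 0 of the 920 subfamilies (0%) passed, and 0 had an unadjusted p under 0.05. With a term for the sets of libraries 0 passed again, with 1 member and 5 of the 920 (0.543%) at an unadjusted p under 0.05. The edgeR and DESeq2 tests also called 0. The spread between the sets was large, so these counts do not show that the genotypes were alike.

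IAPEz-int stood at 45795, 56431, 44981, 33636 and 26102 normalized reads in PS19 replicates 1 to 5 at 4 months, and at 31175, 44929, 41973, 34115 and 43844 in Control replicates 1 to 5. The genotypes overlapped, and the log2 fold change was 0.04 (95% interval -1.04 to 1.13). By set of libraries, the log2 difference of PS19 and Control was 0.33 in replicates 1 to 3 and -0.38 in replicates 4 and 5. IAPLTR1_Mm stood at 5386, 6548, 4181, 3165 and 2951 in PS19 replicates 1 to 5, and at 3795, 3950, 4358, 3647 and 4705 in Control replicates 1 to 5. Its log2 fold change was 0.06 (95% interval -0.88 to 0.998). Within the sets it was 0.39 (replicates 1 to 3) and -0.44 (replicates 4 and 5). For both, the direction of the difference turned between the sets.

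IAP1-MM_I-int stood at 134, 69.7, 203, 78.3 and 445 normalized reads in PS19 replicates 1 to 5 at 4 months, and at 365, 231, 253, 249 and 368 in Control replicates 1 to 5. PS19 replicates 1 to 4 lay below every Control animal and PS19 replicate 5 above every one. The log2 fold change was -0.97 (95% interval -2.19 to 0.25, limma adjusted p 0.9999), the smallest p of the 920, and with the set term the 95% interval was -1.72 to -0.22 (limma adjusted p 0.993). In replicates 1 to 3 alone, 3 animals of each genotype, it was the 1 subfamily of 920 that passed (0.109%), lower in PS19 by a log2 fold change of -1.16 (limma adjusted p 0.0142). In replicates 4 and 5 the difference was -0.69. The sets were drawn from library totals already seen, and replicates 1 to 3 leave out PS19 replicate 5. The call in that set alone is therefore not a shown difference between genotypes at 4 months.

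MMETn-int stood at 1480, 1470, 1333, 884 and 467 normalized reads in PS19 replicates 1 to 5 at 4 months, and at 1511, 1843, 1162, 239.6 and 717.5 in Control replicates 1 to 5. Every animal of replicates 1 to 3 lay above every animal of replicates 4 and 5, whatever its genotype. Its log2 fold change was 0.22 (95% interval -1.03 to 1.47). The other tested members had log2 fold changes of -0.47 for IAPEY4_LTR to 0.50 for ETnERV3-int. The median over all 26 members was -0.00, against -0.08 over the 920 subfamilies.

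Whether the PS19 difference was larger at 9 than at 4 months was tested as an interaction in all samples. In limma 0 of 26 members and 0 of the 920 (0%) passed, with 2 members and 8 of the 920 (0.87%) at an unadjusted p under 0.05. The difference between ages was 0.62 for IAPEz-int (95% interval -0.21 to 1.45) and 0.62 for IAPLTR1_Mm (95% interval -0.21 to 1.45). For IAP1-MM_I-int it was 1.44 (95% interval 0.05 to 2.84, limma adjusted p 0.997). With the set term 0 members and 2 of the 920 (0.217%) passed, with limma adjusted p of 0.458 for IAPEz-int and 0.520 for IAPLTR1_Mm. On the recovered reads 0 members passed in edgeR (0% of the 920) and 0 in DESeq2 (0.109%), while with sample weights 8 members and 418 of the 920 (45.4%) passed. With the set term 4 members and 76 of the 920 (8.26%) had an unadjusted p under 0.05. A call of the pair at 9 months and none at 4 months is therefore not a shown difference between ages.

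Between ages, nearly all members had fewer normalized reads at 9 months, as most repeats did. In PS19, 23 of 26 members fell and 0 rose, against 708 of the 920 that fell (77%) and 56 that rose (6.09%) in limma. In Control, 25 of 26 fell and 0 rose, against 730 of the 920 that fell (79.3%) and 56 that rose (6.09%). Without overlap, 20 of 26 members were lower at 9 months in PS19, where 43.3% of the 920 were, and 20 of 26 in Control, where 48.4% were. None of the 26 was higher without overlap at 9 months, as 4.89% of the 920 were in PS19 and 3.7% in Control. With 4-month replicates 4 and 5 alone, 20 members fell in PS19 (background 50.2% lower and 14% higher) and 22 in Control (background 50.2% lower and 16.3% higher), and 0 rose. Age cannot be told apart from a difference in preparation, counting or scaling between the ages.

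The ETn/MusD internal parts all fell. Their median log2 fold change of 9 over 4 months was -2.55 in PS19 and -2.78 in Control, against -1.83 in PS19 and -2.14 in Control over the 920 subfamilies. It was -1.86 in PS19 and -2.29 in Control over the IAP internal parts, and the difference between these groups was not tested. MMETn-int averaged 188 ± 63.7 normalized reads at 9 months and 1127 ± 442 at 4 months in PS19 (SD, n = 7 and 5), a log2 fold change of -2.52 (limma adjusted p 1.48e-05). In Control it averaged 122 ± 47.0 at 9 months and 1095 ± 635 at 4 months (SD, n = 6 and 5), a log2 fold change of -2.93 (limma adjusted p 1.53e-06). ETnERV-int was at -2.54 in PS19 and -2.93 in Control, and the 4 internal parts also passed with only 4-month replicates 4 and 5, where their median was -2.02 in PS19 and -1.50 in Control and that of the IAP internal parts -1.56 in PS19 and -1.60 in Control. As a percent of all repeat signal the 4 internal parts summed to 0.0929 ± 0.0230 at 9 months and 0.217 ± 0.0395 at 4 months in PS19. In Control they summed to 0.0763 ± 0.0120 at 9 months and 0.182 ± 0.0410 at 4 months.

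With all 4-month libraries, IAPEz-int fell by less than the median repeat, at a log2 fold change of -1.06 in PS19 (limma adjusted p 0.00133) and -1.68 in Control (limma adjusted p 1.28e-05). IAPLTR1_Mm was at -0.70 in PS19 (limma adjusted p 0.0247) and -1.32 in Control (limma adjusted p 0.000179). Against 4-month replicates 4 and 5 alone, where the median of the 920 subfamilies was -0.95 in PS19 and -0.96 in Control, the place of the pair relative to it differed by genotype. IAPEz-int was then at -0.63 in PS19 (limma adjusted p 0.0195) and -1.68 in Control (limma adjusted p 7.52e-07). IAPLTR1_Mm was at -0.23 in PS19 (limma adjusted p 0.408) and -1.34 in Control (limma adjusted p 3.57e-05). In Control both thus lay below the median repeat, and in PS19 above it. At 4 months this contrast rests on replicates 4 and 5 of each genotype alone. For the interaction, 0 of 15 alternative settings and 0 of 23 fits with 1 sample left out called either subfamily. A difference between genotypes in the change with age is therefore not shown. The direction of both rested on the scale. Under TMM scaling within repeats, where the median of the 920 subfamilies was -0.05 in PS19 and -0.09 in Control, IAPEz-int was at 0.74 in PS19 and 0.40 in Control, and IAPLTR1_Mm at 1.11 in PS19 and 0.77 in Control. On that scale 3 members rose and 9 fell in PS19 (background 32.3% higher and 27.5% lower), and 1 rose and 6 fell in Control (background 32.7% higher and 29.2% lower). The ETn/MusD internal parts were negative under each scaling tried, though under TMM scaling ETnERV3-int and ETnERV2-int no longer passed in Control. IAPA_MM-int did not pass in either genotype, at -0.51 in PS19 and -0.64 in Control, nor did IAP1-MM_I-int (0.10) and IAPEY4_LTR (-0.81) in PS19. As a percent of IAPEz-int, IAPLTR1_Mm stood at 13.8 ± 1.72 at 9 months and 10.7 ± 1.22 at 4 months in PS19, and at 13.6 ± 1.54 at 9 months and 10.6 ± 1.21 at 4 months in Control.

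Within the 4-month animals, the medians of the groups of members differed less between the sets of libraries than the median repeat. Replicates 1 to 3 stood above replicates 4 and 5 by a median log2 difference of 1.93 over the 920 subfamilies, with 6 and 4 libraries. The median was 0.60 over the IAP internal parts, 1.09 over the IAP LTRs and 1.42 over the ETn/MusD internal parts, and RLTRETN_Mm stood at 1.66. IAPEz-int averaged 44214 ± 8098 normalized reads in replicates 1 to 3 and 34424 ± 7273 in replicates 4 and 5 (SD), a log2 difference of 0.36, at the 2.61 percentile of the 920. IAP1-MM_I-int was lower in replicates 1 to 3, at 209 ± 102, than in replicates 4 and 5, at 285 ± 160, a log2 difference of -0.36. IAPEY3-int, at a log2 difference of 2.31, stood above the median of the 920. These differences carry no test, because the sets were drawn from the totals of the same libraries.

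**Figure D5:**
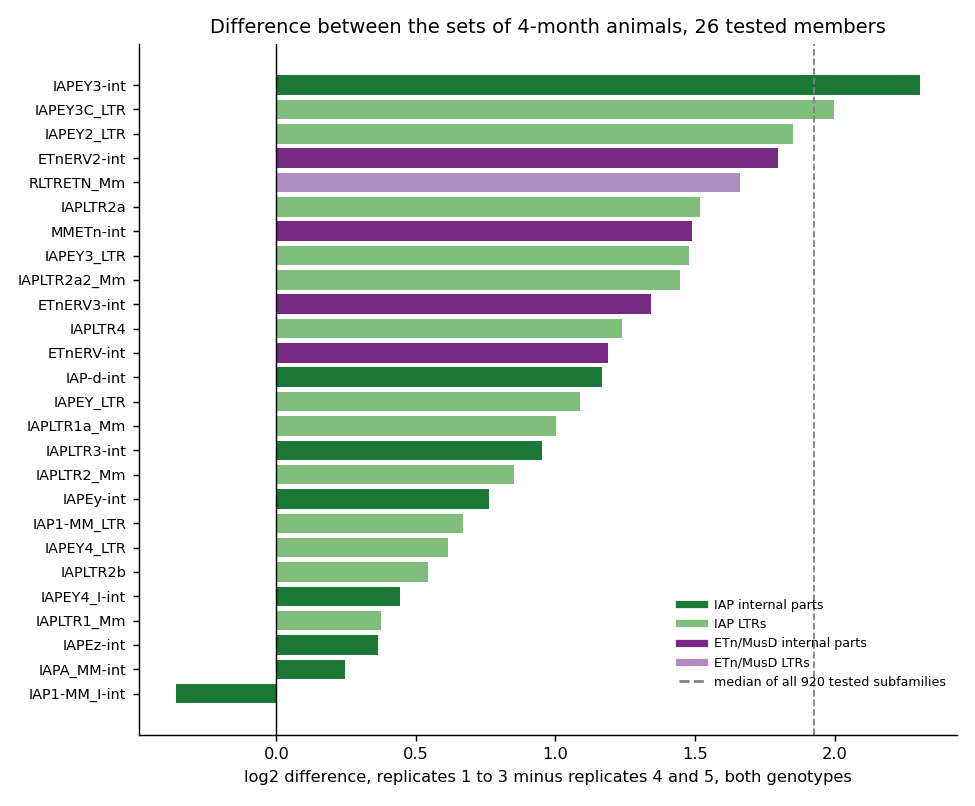
Log2 difference of 4-month replicates 1 to 3 over replicates 4 and 5, both genotypes together, for the 26 tested members, with bars coloured by internal parts and LTRs of IAP and ETn/MusD. The dashed line is the median of all 920 tested subfamilies at 1.93. Bars of IAPEY3-int and IAPEY3C_LTR reach past the line, at 2.31 and 1.998, and IAP1-MM_I-int is the member below 0, at -0.36.

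The share of IAPEz-int among repeat reads differed between the sets in turn. In replicates 1 to 3 it made up 3.06%, 3.62% and 2.40% of the repeat signal in PS19, and 1.94%, 1.83% and 2.20% in Control. In replicates 4 and 5 it made up 4.31% and 5.54% in PS19, and 6.72% and 6.78% in Control. The lower shares stand in the libraries with the higher repeat totals. PS19 animals were the higher in replicates 1 to 3 and Control animals in replicates 4 and 5.

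The 4 members under the level for a test had few reads in every group. IAPEY5_I-int had 0 to 3 reads per library in PS19 and 0 to 4 in Control at 9 months, and 2 to 11 in PS19 and 1 to 19 in Control at 4 months. IAPLTR4_I had 0 reads in each of 7 PS19 libraries and 0 to 2 in Control at 9 months, and 2 to 12 in PS19 and 0 to 18 in Control at 4 months. IAPLTR3 had 0 to 6 reads in PS19 and 2 to 12 in Control at 9 months, and IAPEY5_LTR 0 to 8 in PS19 and 0 to 3 in Control. In the limma fit with no filter, none of these 4 passed at either age. At 9 months, where that fit tested 1064 subfamilies, IAPEY5_LTR was at a log2 fold change of 1.28 (95% interval 0.13 to 2.43, limma adjusted p 0.239) and IAPLTR3 at -1.17 (95% interval -2.23 to -0.11, limma adjusted p 0.243). IAPEY5_I-int was at -0.56 (limma adjusted p 0.562) and IAPLTR4_I at -0.60 (limma adjusted p 0.427), and at 4 months the smallest unadjusted p of the 4 was 0.314.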

How the data were processed

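The table analysed lists 1135 repeat subfamilies of the mouse genome in 23 samples, 1 column per animal, and 0 columns were left unused. Per the submitters' processing notes, Trimmomatic, STAR, DESeq2 and the genome build mm10 were used. Versions, the program and annotation used to count repeats, the handling of reads that match many copies, the strand of counting and whether both ages were scaled together are not given in these sources. The deposited values are a signal that behaves as whole reads divided by 1 size factor per library. All values (100%) came out within 1 percent of a whole read, and the reads were recovered in this way.

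The 920 subfamilies with a mean value of 10 or more were tested (215 were removed) as log2(value + 1), a scale that understates the fold change of low subfamilies. Tests used limma 3.58.1 with a variance trend in R 4.3.3, Benjamini-Hochberg adjustment over all 920 and a threshold of 0.05. Genotypes were compared within the samples of 1 age, and the interaction and the ages in a fit of all samples. On the recovered reads, edgeR 4.0.16 and DESeq2 1.42.0 were alternatives, with other pseudocounts, filters, scalings, variance settings, sample weights and each sample left out. The fits were tested on simulated data with known fold changes. The simulated spread was that of the 9-month samples at both ages, and the sets of 4-month libraries were not simulated. The fits that use 4-month libraries were therefore not tested under their own spread. Members named with values were each one called at 9 months, internal parts with a mean of at least 50, the 4 highest IAP LTRs and every ETn LTR. IAPEY4_LTR, IAPEY_LTR, IAPLTR2b, IAPEY3C_LTR and the 4 members under the filter are outside this rule and were named after their values were seen. The members and lists, and the choice to fit 1 age at a time, were made with earlier results of these data known. Replicates differed by more than sampling noise in every pair, with a lowest chi-square per degree of freedom of 3.73. No sequence of a subfamily is shown.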

Additional observations from a re-analysis of the deposited data

Results flagged for a closer look

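IAPLTR1a_Mm had 77.9 normalized reads in Control replicate 5 at 9 months, while the other Control animals had 133 to 164. The gap to the nearest animal was 0.645 of the range of the group. It was the 1 sample flagged among 80 groups of 5 to 7 samples examined, where chance gives about 1 in 20. A rate of 1 in 80 is no more than chance gives.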

How the results depend on the processing

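No paired analysis was possible because the sources used here do not give the litter of an animal. Of the 26 members, 2 passed between PS19 and Control at 9 months. This became 0 with TMM, with quantile scaling, with scaling to the total of other repeats, without the variance trend, at a threshold of 0.01 and with all 23 samples in the fit. It became 4 with sample weights, and was 0 to 4 when 1 animal was left out. How many of the 920 passed in those fits is not given here, so a rise to 4 is not a result about the members. At 4 months the count of 0 became 1 in replicates 1 to 3 alone. The interaction count of 0 became 8 with sample weights, a setting under which 418 of the 920 subfamilies passed. Between ages, the 23 members called in PS19 became 12 with TMM, and the 25 in Control became 7 with TMM and 16 with quantile scaling. The share of the 920 under quantile scaling is not given here. The cause of these changes was not tested.

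Some log2 fold changes turned sign. At 9 months, TMM gave -0.090 for IAPEy-int, -0.020 for IAPA_MM-int, -0.17 for IAPLTR1a_Mm, -0.050 for IAPLTR2_Mm and -0.0025 for IAPLTR2a2_Mm. Quantile scaling gave -0.12 for IAPEy-int, -0.029 for IAPA_MM-int, -0.040 for ETnERV2-int, -0.17 for IAPLTR1a_Mm and -0.040 for IAPLTR2_Mm. Scaling to other repeats gave -0.029 for IAPEy-int and -0.11 for IAPLTR1a_Mm. Sample weights gave -0.0041 for IAPA_MM-int, -0.035 for IAPLTR1a_Mm and 0.0043 for RLTRETN_Mm, which was 0.040 in edgeR and 0.041 in DESeq2. PS19 replicates 6 and 7 alone gave -0.052 for ETnERV-int. With 1 animal left out, RLTRETN_Mm ranged over -0.10 to 0.085, IAPLTR1a_Mm over -0.15 to 0.079 and ETnERV2-int over -0.018 to 0.35. At 4 months, replicates 1 to 3 alone gave -0.053 for MMETn-int, and replicates 4 and 5 alone gave -0.38 for IAPEz-int and -0.44 for IAPLTR1_Mm. With 1 animal left out, IAPEz-int ranged over -0.081 to 0.20, IAPLTR1_Mm over -0.10 to 0.19 and MMETn-int over -0.25 to 0.51.

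For 9 over 4 months in PS19, IAPEz-int was at 0.74 with TMM, 0.40 with quantile scaling and 0.25 with scaling to other repeats. IAPLTR1_Mm was at 1.11, 0.56 and 0.61 under these scalings, and IAPEY4_I-int at 0.016 with TMM. In Control, IAPEz-int was at 0.40 with TMM and 0.33 with quantile scaling. IAPLTR1_Mm was at 0.77 with TMM, 0.20 with quantile scaling and 0.24 with scaling to other repeats, and IAP1-MM_I-int at 0.73, 0.29 and 0.20. Members with few reads limit what depth can show, and a missed threshold does not show that genotypes were alike.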
